A study of Mus musculus with 2 samples.

Results

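The fibroblast growth factor (FGF) genes of mouse embryos were examined together with their receptors, their feedback inhibitors and the ETS factor genes they switch on. Members were all probes whose only annotated symbol was Fgf or Fgfr followed by a number, Fgfrl1, Spry1, Spry2, Spry4, Spred1, Spred2, Dusp6, Etv4, Etv5 or Il17rd. This gave 43 of the 36227 probes on the array and 35 of 18069 named genes: 22 Fgf genes, 4 receptor genes, 7 feedback inhibitors and 2 ETS factor genes. Fgfr2 had no probe annotated to it alone and was not analysed here. RNA of the embryo proper at E8.5 (embryonic day 8.5) was hybridised to 1-colour arrays, 1 array per group, and the design compares mDom-/- with wild-type embryos. The mDom-/- RNA came from 45 pooled embryos homozygous for a mutation of mDom, and the wild-type RNA from 42 pooled embryos, matched to them by litter. mDom (p400, present symbol Ep400) encodes an ATPase that remodels chromatin. Neither the strain nor the kind of mutant allele is stated in the labels.

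FGFs are secreted ligands that bind receptor tyrosine kinases (Fgfr genes) together with heparan sulfate, and the receptors signal through RAS and ERK. ERK signalling switches on Etv4 and Etv5 as well as its own inhibitors, among them the Sprouty and Spred proteins, the ERK phosphatase Dusp6 and the membrane protein Il17rd (Sef), so these genes are commonly read as a sign of pathway activity. At this stage FGF signals from the primitive streak and tail bud, the midbrain-hindbrain boundary, the pharyngeal region and the forebrain edge pattern the tissues around them. The Fgf11 to Fgf14 genes stand apart: their proteins stay inside the cell, where they bind voltage-gated sodium channels, and they are not ligands of the canonical signal.

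Each intensity below is a multiple of its own array's median. A floor at 0.541 marks the level below which a probe was not counted as measured. With 1 array per group there is no replicate error and no test, so a gene is described as apart when its arrays differ at least 2-fold. The only internal measure of error is the spread between probes of the same gene, an SD of 0.25 on the log2 scale over 1302 genes. It comes from probes on the same 2 arrays, so it leaves out variation between pools, labellings and arrays. A ratio larger than this SD is therefore not shown to be a difference between the groups. Both Ep400 probes lay below the floor, at -0.029 and 0.071 in mDom-/- and at 0.215 and 0.470 in wild-type embryos, so they do not check the labels. Of 10 markers of the embryo proper, 8 were compared, with log2 ratios from -0.38 (Pax6) to 0.36 (Foxa2) and a summed intensity of 131.1 in mDom-/- and 129.6 in wild-type embryos. Visceral endoderm and yolk sac markers were present too, with 8 of 9 compared and a summed intensity of 625.7 in mDom-/- and 549.0 in wild-type embryos. Ttr alone differed by more than these sums, at 251.2 in mDom-/- and 166.6 in wild-type embryos, while 5 of the 8 lay below 0, the median log2 ratio was -0.15, and the extremes were Lrp2 at -0.74 and Apoa4 at 0.79. Of the 4 compared red cell markers, 3 were at least 2-fold lower on the log2 scale (Hbb-y -4.71, Hba-x -3.15 and Alas2 -1.15). That is 75%, against 0.929% of all compared genes. Rhag, the other marker, was nearly equal, at 9.49 in mDom-/- and 9.57 in wild-type embryos (log2 ratio -0.01). The 4 had a summed intensity of 39.8 in mDom-/- and 349.2 in wild-type embryos, mostly from Hbb-y and Hba-x. Trophoblast and placenta markers (5 of 8 compared) summed to 46.7 in mDom-/- and 50.9 in wild-type embryos, with log2 ratios from -0.38 (Elf5, a bound) to 0.50 (Ascl2). Those of decidua and maternal tissue (4 of 4) summed to 34.3 in mDom-/- and 30.6 in wild-type embryos, with log2 ratios from 0.15 (Prl8a2) to 0.35 (Dcn). The trophoblast sum includes Hand1 and Cdx2 (18.1 in mDom-/-, 19.9 in wild-type), and the decidua sum includes Bmp2 (17.9 in mDom-/-, 16.1 in wild-type). The embryo proper can express these 3 genes too, so neither sum measures the amount of those tissues. A marker was compared only when it was above the floor on at least 1 array, so the compared markers alone cannot show that a tissue was absent. Any part of these tissues in the values below was not tested.

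Few FGF genes were 2-fold apart between the 2 pools, but they were no closer than other genes. The median absolute log2 ratio was 0.19 for members measured on both arrays and 0.17 for all genes measured on both. Of the 35 members, 27 could be compared, 24 of them above the floor on both arrays, and 8 could not. Each gene is given by 1 probe, the one of highest mean log2 intensity. In mDom-/- embryos Fgf13 alone was lower by 2-fold or more, and 0 members were shown to be higher by as much. The dimmer probe of Fgf11, a bound, was at least 2.55-fold higher. Among all 13137 compared genes 0.929% were at least 2-fold lower and 0.845% at least 2-fold higher, 1.77% in all, and the members' share of 3.70% (1 of 27) rests on a single gene. The median log2 ratio, mDom-/- over wild-type, was -0.09 over the 27 members and -0.00361 over all compared genes. Of the 24 members measured on both arrays 18 lay below 0 and 6 above (75% below), against 50.7% below 0 among all genes measured on both. Some on either side lay closer to 0 than the probe SD of 0.25. Among them, the signs of Fgf5 (-0.02) and Fgf3 (0.10) changed with the processing. The other 3 compared members, Fgf2, Fgfr4 and Spred2, are bounds with wild-type below the floor, which can only read above 0. In pooled tissue, fewer cells of a type and less RNA per cell cannot be told apart.

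**Figure D1:**
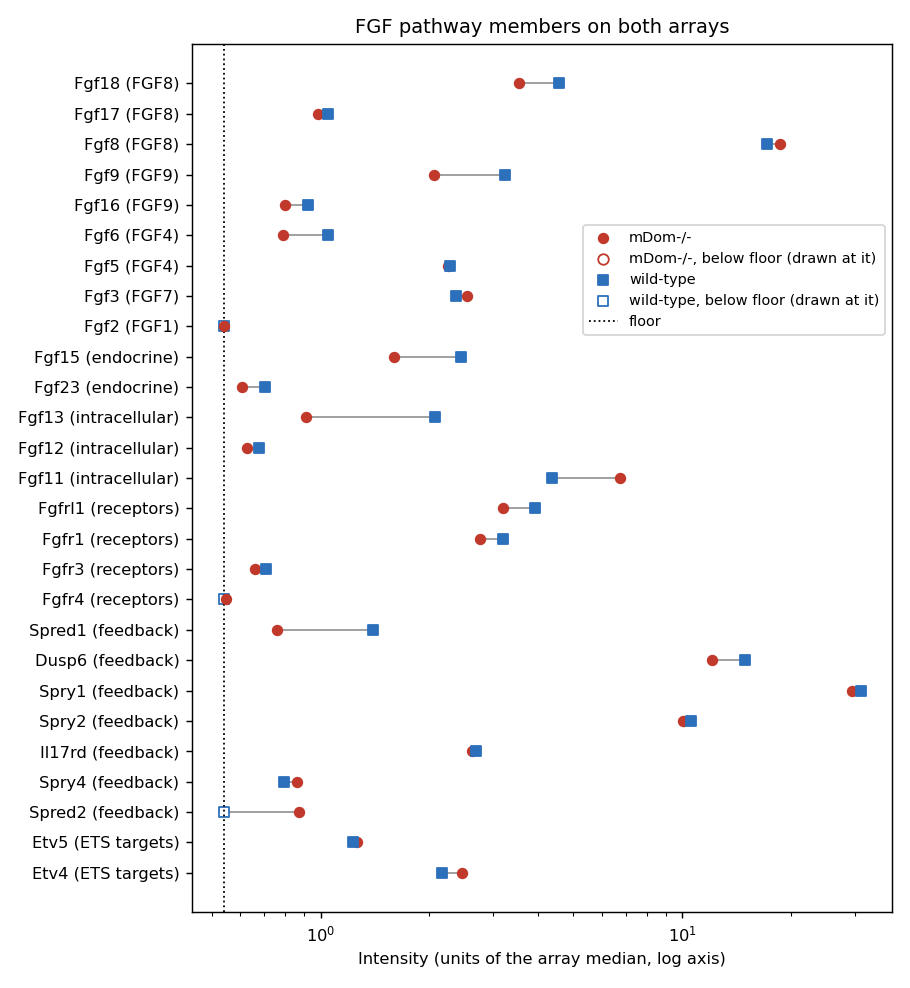
Intensity of the 27 compared members on the mDom-/- array (red circles) and the wild-type array (blue squares), in units of the array median on a log axis, with 1 array per group and no error bars. Open symbols were below the floor of 0.541 and are drawn at it. Fgf13, Spred1, Fgf9 and Fgf15 sit to the left in mDom-/- embryos, Fgf11 and Spred2 to the right, and Fgf8, Spry1 and Spry2 nearly coincide.

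Fgf8, the tail bud and midbrain-hindbrain organiser ligand, was well above the floor. It read 18.7 in mDom-/- and 17.2 in wild-type embryos, a log2 ratio of 0.12. Its relatives Fgf17 and Fgf18, which are also made at the midbrain-hindbrain boundary, read lower in mDom-/- embryos by less than 2-fold. Of these 2, only Fgf18 differed by more than the probe SD of 0.25. Fgf17 read 0.987 in mDom-/- and 1.05 in wild-type embryos (log2 ratio -0.09), and Fgf18 read 3.55 in mDom-/- and 4.57 in wild-type embryos (log2 ratio -0.37). No ligand of the Fgf8 subfamily was 2-fold apart.

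Other genes of the tissues that make Fgf8 went both ways. Of 6 compared presomitic mesoderm and tail bud markers (of 7), 4 lay above 0, with a median log2 ratio of 0.20 and a summed intensity of 43.2 in mDom-/- and 37.9 in wild-type embryos. Wnt3a, a tail bud ligand, read 24.6 in mDom-/- and 20.0 in wild-type embryos (log2 ratio 0.30), Msgn1 had 0.36 and the Notch ligand gene Dll1 had -0.62. Of 5 markers of the midbrain-hindbrain boundary, 4 were compared, with a summed intensity of 15.2 in mDom-/- and 17.6 in wild-type embryos. En2, a homeobox gene of this region, read 1.61 in mDom-/- and 4.66 in wild-type embryos, 2.90-fold lower. The related En1 had a log2 ratio of 0.06, the organiser ligand gene Wnt1 0.15 and Pax5 -0.20. Only En2 of these 4 was 2-fold apart (25%, a single gene, against 1.77% of all compared genes), and its probe was at least 2-fold lower under each of the 8 other scaling, floor and probe settings tried.

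Fgf9 and Fgf15 read lower by about the same factor. Fgf9, a ligand made by epithelia and mesothelia, read 2.06 in mDom-/- and 3.24 in wild-type embryos, 1.57-fold lower. Fgf15, made in the neural tube of the embryo and a bile acid hormone in the adult gut, read 1.60 in mDom-/- and 2.44 in wild-type embryos, 1.52-fold lower. Neither difference reached 2-fold. Fgf16, a relative of Fgf9 known from heart, read 0.799 in mDom-/- and 0.922 in wild-type embryos (log2 ratio -0.21). Fgf23, the phosphate hormone of the adult, read just above the floor, at 0.607 in mDom-/- and 0.703 in wild-type embryos (log2 ratio -0.21).

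Among the remaining secreted ligands, Fgf3, which acts from the hindbrain on the inner ear, read 2.54 in mDom-/- and 2.37 in wild-type embryos (log2 ratio 0.10). Its dimmer probe had -0.18, so the sign depended on the probe. Fgf5, a ligand of the epiblast, read 2.25 in mDom-/- and 2.28 in wild-type embryos (log2 ratio -0.02). Fgf6, known from muscle, read 0.789 in mDom-/- and 1.05 in wild-type embryos (log2 ratio -0.41). Fgf2, which lacks a classical signal peptide, read 0.541 in mDom-/-, at the floor itself, and -0.0232 in wild-type embryos, so no fold is given. Over the 11 compared secreted ligands of 18 the median log2 ratio was -0.21. Of the 10 measured on both arrays 8 lay below 0, and none was 2-fold apart. The sign of Fgf5, counted among the 8, changed with the scaling. Among the 10 measured on both arrays the extremes were Fgf9 at -0.65 and Fgf8 at 0.12.

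The other 7 secreted ligands and 1 intracellular gene could not be compared. Fgf1, Fgf4, Fgf7, Fgf20, Fgf21 and Fgf22 were below the floor on both arrays, as was the intracellular Fgf14, with intensities from -0.00906 to 0.361 in mDom-/- and from -0.161 to 0.392 in wild-type embryos. Fgf4, a ligand of the primitive streak, was the lowest of them in wild-type embryos. Fgf10, a ligand of the limb, lung and heart fields, carried the code for no value on both arrays.

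The intracellular genes held both the lowest and the highest ratio among the 24 members measured on both arrays. Fgf13, which encodes a sodium channel and microtubule binding protein of neurons, read 0.911 in mDom-/- and 2.07 in wild-type embryos, 2.27-fold lower. It is dim: by the mean of both arrays it was among the 25% of measured genes with the lowest signal, of which 2.38% were at least 2-fold apart, with a robust SD of 0.35 for their log2 ratios. With the floor at the 60th percentile its log2 ratio was -0.23, and the 2-fold call was lost. Fgf13 had a single probe, so no other probe checks it. Fgf11 went the other way on both of its probes. The brighter read 6.74 in mDom-/- and 4.37 in wild-type embryos, 1.54-fold higher. The dimmer read 1.38 in mDom-/- and 0.361 in wild-type embryos, where it was below the floor, so it was at least 2.55-fold higher. Fgf12 read 0.628 in mDom-/- and 0.677 in wild-type embryos (log2 ratio -0.11), and both values were near the floor.

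The 3 receptor genes measured on both arrays had log2 ratios from -0.30 to -0.09, and Fgfr4 was a bound. Fgfr1, the main receptor of mesoderm at this stage, read 2.76 in mDom-/- and 3.20 in wild-type embryos (log2 ratio -0.21). Fgfrl1, a receptor without a tyrosine kinase domain, read 3.20 in mDom-/- and 3.93 in wild-type embryos (log2 ratio -0.30). Fgfr3, a receptor of the neural tube and later of cartilage, read 0.660 in mDom-/- and 0.705 in wild-type embryos (log2 ratio -0.09). The difference of Fgfrl1 was larger than the probe SD of 0.25. That of Fgfr1 was smaller than this SD, though larger than the robust SD of the same probe pairs, 0.19. Both genes lay below the median brightness of genes measured on both arrays. For pairs whose dimmer probe lay there, the SD was 0.27 and the robust SD 0.23. The difference of Fgfrl1 exceeded both of these values, and that of Fgfr1 exceeded neither. None of these SDs holds variation between pools or arrays, so they cannot show whether either receptor differed between the groups. Fgfr4 read 0.549 in mDom-/-, just above the floor, and 0.195 in wild-type embryos, below it. Its bound of 0.02 on the log2 scale became 1.197 with the floor at the 25th percentile, so no direction is given for it.

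The 4 feedback inhibitors brightest on these arrays differed by at most 1.23-fold between the pools. Spry1, a Sprouty gene that restrains RAS and ERK, read 29.4 in mDom-/- and 31.1 in wild-type embryos (log2 ratio -0.08). Spry2, its close relative, read 10.0 in mDom-/- and 10.6 in wild-type embryos (log2 ratio -0.08). Dusp6, the phosphatase of ERK, read 12.1 in mDom-/- and 14.9 in wild-type embryos (log2 ratio -0.30). Over all settings its log2 ratio stayed between -0.31 and -0.27, a difference larger than the probe SD of 0.25. Il17rd read 2.62 in mDom-/- and 2.68 in wild-type embryos (log2 ratio -0.03). Both ETS factor genes were above 0 by little. Etv4 read 2.46 in mDom-/- and 2.17 in wild-type embryos (log2 ratio 0.18). Etv5 read 1.26 in mDom-/- and 1.23 in wild-type embryos (log2 ratio 0.04).

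The dim feedback genes diverged. Spred1, which binds neurofibromin to hold RAS off, read 0.760 in mDom-/- and 1.40 in wild-type embryos, 1.84-fold lower. Spred2, its relative, went the other way, at 0.870 in mDom-/- and 0.455 in wild-type embryos, below the floor, so it was at least 1.61-fold higher. Spry4 depended on the probe. Its probe with the higher mean log2 intensity read 0.862 in mDom-/- and 0.793 in wild-type embryos (log2 ratio 0.12), while the other read 1.13 in mDom-/- and 0.565 in wild-type embryos, 1.997-fold higher and just short of the rule. Spred1, Spred2 and Spry4 all had wild-type intensities of 1.40 or lower, where ratios spread most. Over the 7 feedback inhibitors the median log2 ratio was -0.08, and none of the 6 measured on both arrays was 2-fold apart.

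**Figure D2:**
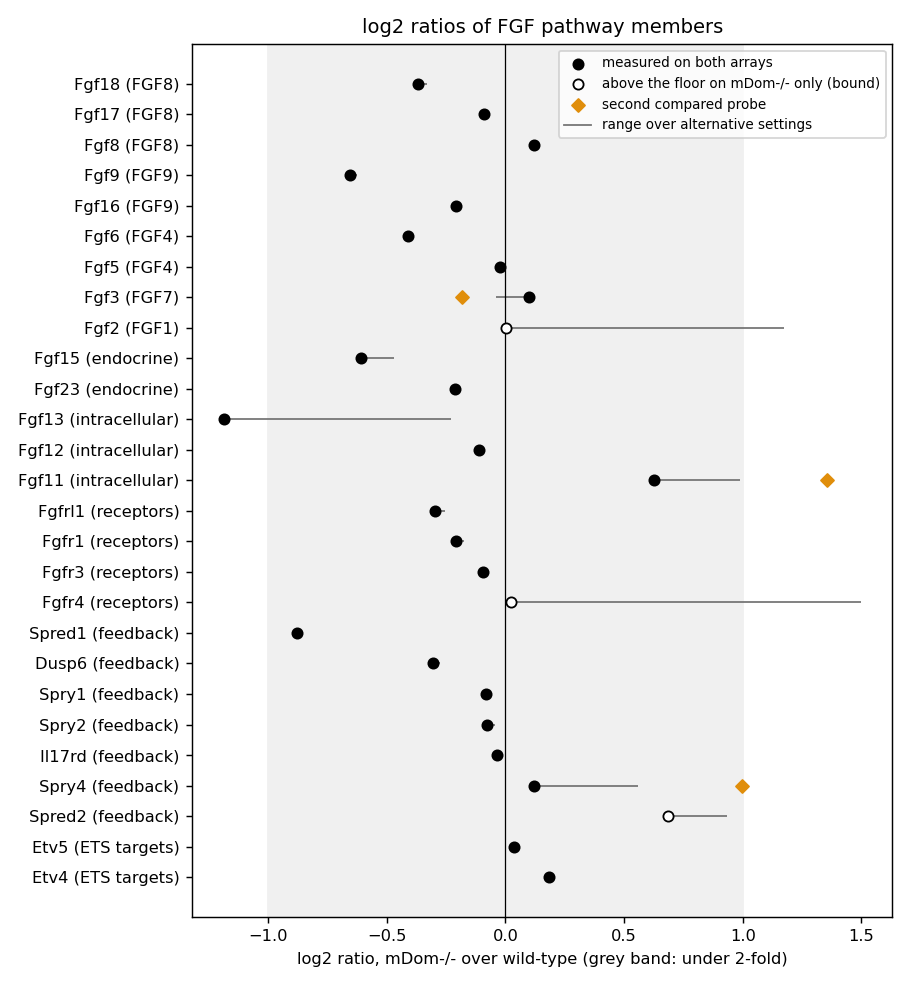
log2 ratio of each of the 27 compared members, mDom-/- over wild-type, with filled points for genes above the floor on both arrays, open points for bounds, diamonds for the other compared probe of a gene, and lines for the range over the scaling, floor and probe settings. The grey band is under 2-fold. Only Fgf13 lies outside it among the filled and open points, at -1.18, and its line reaches -0.23. The diamond of Fgf11, a bound, also lies outside the band, at 1.35. The open points of Fgf2 and Fgfr4 move most to the right.

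At a looser rule of 1.5-fold, 4 members were lower (Fgf13, Spred1, Fgf9 and Fgf15) and 2 were higher (Fgf11 and, as a bound, Spred2). The 4 lower members were 14.8% of those compared, against 4.35% of all compared genes, and the 2 higher members were 7.41%, against 4.09%. Dim genes pass such a rule more often, and 20 of the 24 members measured on both arrays were in the dimmer 50% of the genes measured there. Within that dimmer 50%, 4 of 20 members (20%) were at least 1.5-fold lower, against 5.62% of genes, and 1 of 20 (5%) was at least 1.5-fold higher, against 4.78%. The 4 members in the brighter 50% (Fgf8, Spry1, Spry2 and Dusp6) all lay between -0.30 and 0.12 on the log2 scale. The 4 lower genes have different roles: an intracellular channel partner, an inhibitor of RAS and 2 secreted ligands. No test of these shares was possible with 1 array per group.

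**Figure D3:**
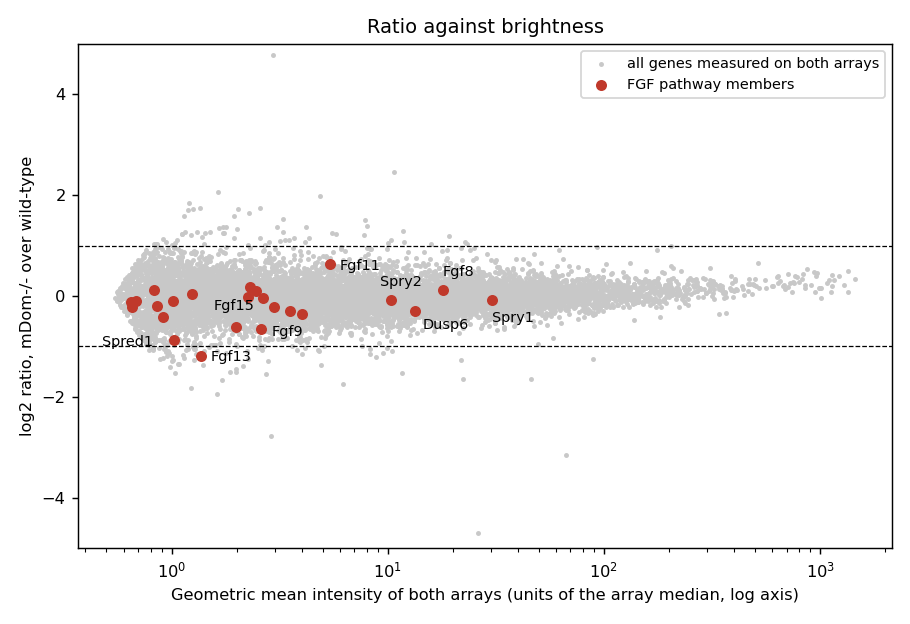
log2 ratio, mDom-/- over wild-type, against the geometric mean intensity of both arrays (units of the array median, log axis) for the 11926 genes measured on both arrays (grey) and the 24 members among them (red). Dashed lines mark 2-fold. The cloud is widest at low intensity, where Fgf13 and Spred1 lie. Fgf8, Spry1 and Spry2 lie near 0, and Dusp6 lies at -0.30.

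Of the 8 members with 2 probes, 3 had both compared: Fgf11, Fgf3 and Spry4. In the other 5 (Fgf5, Fgf9, Fgf12, Fgf23 and Il17rd) the other probe was below the floor on both arrays, although the first was above it, so those genes rest on 1 probe each. For Fgf9 the unmeasured probe read 0.0247 in mDom-/- and 0.295 in wild-type embryos. In the gene order of RefSeq (GRCm38.p6), Fgf3, Fgf4 and Fgf15 follow each other with 0 other protein-coding genes between them, and so do Fgf6 and Fgf23. In the first group Fgf15 had a log2 ratio of -0.61, the Fgf3 probes had 0.10 and -0.18, and Fgf4 was not compared. Fgf6 and Fgf23 had -0.41 and -0.21.

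Of the genes that carry the signal inside the cell, none measured on both arrays was 2-fold apart. Of 21 RAS-ERK transducers, 12 had a probe of their own and all 12 were compared, with a median log2 ratio of -0.19. The lowest was the docking protein gene Gab1, at 1.93 in mDom-/- and 3.14 in wild-type embryos (log2 ratio -0.70), and the highest was Ptpn11 (SHP2), a phosphatase needed for RAS activation, at 4.87 in mDom-/- and 3.46 in wild-type embryos (log2 ratio 0.49). With the floor at the 60th percentile this list's median was 0.00128. Of the 6 genes of the phospholipase, PI3 kinase and CBL branch, Plcg1 and Cbl were bounds with wild-type below the floor. The 4 measured on both arrays had a median of -0.02 (0.14 with the bounds), with 2 above and 2 below 0, from -0.25 (Pik3ca, the catalytic subunit) to 0.38 (Prkca, protein kinase C alpha). Of 23 genes for heparan sulfate and co-receptors, 21 were compared, with a median of -0.01, and none of the 19 measured on both arrays was 2-fold apart. Their extremes were Flrt1, a membrane partner of the receptors that was at least 1.63-fold lower as a bound, and the proteoglycan gene Sdc4, at 6.12 in mDom-/- and 4.26 in wild-type embryos (log2 ratio 0.52).

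The list of other genes that respond to ERK also holds Elk1, Elk3 and Srf, which encode transcription factors that act in that response. Of its 19 genes 15 were compared, and 2 were at least 2-fold apart, in opposite directions. That is 13.3%, against 1.77% of all compared genes, and 1 of the 2 is Elk3. Fosl1 and Elk1 were bounds with wild-type below the floor. Of the 13 measured on both arrays 11 lay above 0 and 2 below (15.4% below), against 50.7% below 0 among all genes measured on both, with a median log2 ratio of 0.15 (0.23 with the bounds). Ier3, an immediate early gene, read 6.68 in mDom-/- and 2.60 in wild-type embryos, 2.57-fold higher. Elk3, an ETS factor gene of endothelium, read 0.668 in mDom-/- and 1.70 in wild-type embryos, 2.54-fold lower, and was not compared with the floor at the 60th percentile. Genes of tissues that depend on FGF signals, 12 compared of 16, had a median of 0.07 with 8 above 0. En2, described above, was the lowest, and Aldh1a2, which makes retinoic acid in the trunk mesoderm, was the highest, at 32.7 in mDom-/- and 23.4 in wild-type embryos (log2 ratio 0.48).

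**Figure D4:**
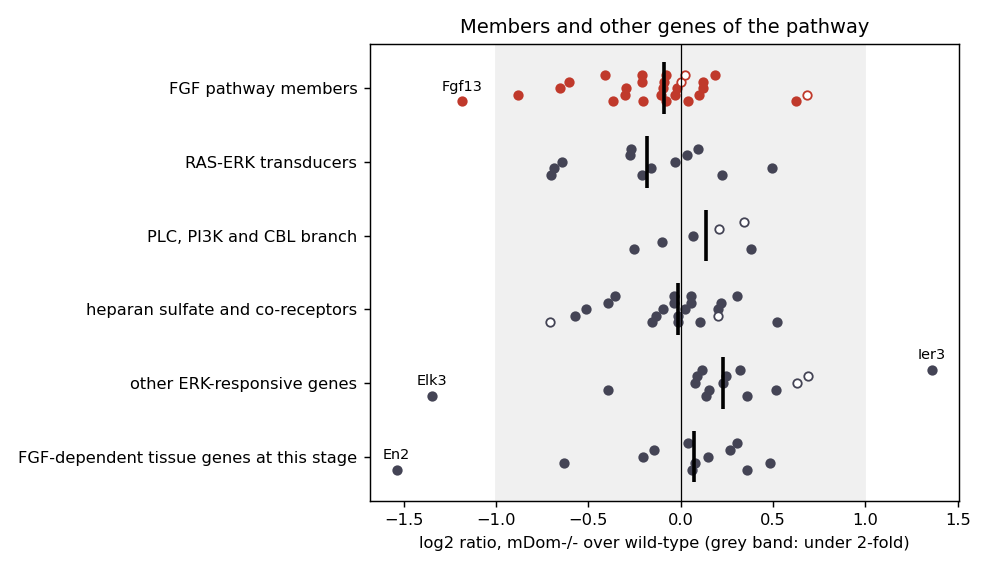
log2 ratio, mDom-/- over wild-type, of the compared FGF members (red) and of 5 lists of other pathway genes (dark), 1 point per gene, open for bounds, with a bar at each list's median and a grey band under 2-fold. The medians, bounds included, run from -0.19 (RAS-ERK transducers) to 0.23 (other ERK-responsive genes), and the named points outside the band are Fgf13, Elk3, En2 and Ier3.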

How the data were processed

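The deposited values are linear intensities that, per the labels, the CodeLink System Software drew from each array image. The labels state neither its version nor the background correction, scaling or detection flags. The code -9999 was read as no value (106 probes in mDom-/-, 105 in wild-type). Symbols came from the platform annotation, updated through RefSeq (GRCm38.p6), and 21615 of 36227 probes had 1 symbol.

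Each array was divided by its median and raised to a floor, the higher of the arrays' 40th percentiles. The log2 ratio was mDom-/- over wild-type. Probes below the floor on both arrays were not compared, and a ratio with 1 array below it is a bound. Of several probes, the one of highest mean log2 intensity stood for the gene. Every compared member is named; of other pathway lists, genes at least 2-fold apart and the extremes. Further genes were chosen after their values were seen. Members and lists were chosen with earlier results of these data known. With 1 array per group the number of arrays limits the precision. Calculations used Python 3.11.15, numpy 2.4.6, pandas 2.3.3 and statsmodels 0.14.6 (loess, span 0.3), and the ratio code was tested on simulated data. Alternatives were 4 scalings, 3 floors, the mean over probes and 2 size rules.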

Additional observations from a re-analysis of the deposited data

How the results depend on the processing

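Fgf13 was the 1 member at least 2-fold lower, and no member was 2-fold higher, with each of the 4 other scalings (none, 75th percentile, quantile, loess) and with the mean over probes. With the floor at the 25th percentile 2 of 29 compared members were at least 2-fold higher, Fgf2 and Fgfr4 (log2 ratios 1.175 and 1.197). Of all genes compared at that floor, 533 of 15792 were. Without a floor 2 of 31 members were, Fgf14 and Fgfr4 (1.496 for Fgfr4), against 1200 of 16349 genes. With the floor at the 60th percentile 15 members were compared and 0 were 2-fold lower, with Fgf13 at -0.23, against 28 of 9553 genes. At 1.5-fold 2 members were higher and 4 lower, and at 3-fold 0 were lower. All genes 2-fold apart numbered 233, but 1055 with the 25th and 66 with the 60th percentile floor and 2329 without a floor, and 1108 passed 1.5-fold and 45 passed 3-fold. The members' median stayed between -0.0917 and -0.0666. With the mean over probes Fgf11 had 0.99, Spry4 0.56 and Fgf3 -0.04. Fgf5 was just above 0 with scaling to the 75th percentile (0.000118) and with quantile normalization (0.00282). The medians of the other lists, bounds included, and the ratios of En2, Elk3 and Ier3 were alternatives added after the data were seen. Where compared they kept their sign, with 2 exceptions. The RAS-ERK median was 0.00128 with the 60th percentile floor and the heparan sulfate median 0.0081 with scaling to the 75th percentile. With the main settings the phospholipase, PI3 kinase and CBL median was 0.14 with its bounds and -0.02 without them, so its sign rests on the bounds. No paired analysis was possible because each group has 1 array. Signal near the floor limits Fgf2, Fgfr4, Fgf12, Fgf23 and Fgfr3.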
